A study of Mus musculus with 10 samples.

Results

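Mitochondrial ribosomal protein genes, the nuclear genes named Mrpl or Mrps and a number, were compared between mouse medulloblastoma and cerebellum. The reference gene table (mouse assembly GRCm38.p6) lists 78 protein-coding genes with such symbols, and 76 of them were measured by at least 1 probe set naming no other gene, among 14702 genes tested in all. The other 2, Mrpl30 and Mrpl53, were covered only by probe sets that name a second gene and were not counted. All 76 passed the filter on low values through at least 1 probe set.

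The tissue came from mice that carried CAGGS-CreER, a tamoxifen-activated Cre recombinase under a broadly active promoter, and R26-SmoM2, a Cre-dependent allele of the activated Hedgehog receptor component SMO. Tamoxifen was injected at postnatal day 10, in a dose of 1 mg for every 40 g that an animal weighed, by the labels. One tissue was medulloblastoma, with 3 biological replicates, and the control was cerebellar tissue next to a tumour, with 2. The labels call this control wild type, although it was taken from mice of the same genotype and treatment as the tumours, so it is no untreated or Cre-negative control. The age at collection, and whether a tumour and a cerebellum sample share an animal, were not recorded in the labels, and p-values therefore measure the spread between these samples, which may be partly technical. Total RNA was hybridised to a pair of Affymetrix chips, 430A and 430B, giving 10 arrays.

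The mitochondrial ribosome stands in the mitochondrial matrix and translates the few messenger RNAs that mitochondrial DNA encodes, all of them for subunits of the respiratory chain and the ATP synthase. Its RNAs come from mitochondrial DNA, whereas every one of its proteins is encoded in the nucleus, made on cytoplasmic ribosomes and imported. A part of these proteins descends from bacterial ribosomal proteins, and the rest were added in mitochondria. In nerve tissue, respiration meets most of the energy demand of firing neurons, and the dividing precursors of the cerebellum are known to rely more on glycolysis.

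Marker genes of several cell types, though not of all that were listed, separated the tissues. On 430A the summed intensity of 5 dividing-cell markers was 3868 to 4355 in the medulloblastomas and 313 to 590 in the cerebella, and all 5 were higher by the test used throughout. Of 6 granule neuron precursor markers, 5 were higher and 1 lower. Their summed intensities overlapped, at 2712 to 3636 in the medulloblastomas and 2358 to 2750 in the cerebella. The summed intensity of 6 mature granule neuron markers was 244 to 332 in the medulloblastomas and 7408 to 8168 in the cerebella, and all 6 were lower. All 4 Purkinje cell markers, all 3 oligodendrocyte markers and 4 of 6 astrocyte markers were lower as well, and 3 of 5 microglial markers were higher. Of 4 endothelial markers 1 was lower and 0 higher, and of 2 red blood cell markers 0 were called. Of 4 choroid plexus markers 1 was higher and 2 were lower. In RNA from whole tissue, fewer cells of a type and less RNA per cell cannot be told apart. The part that these markers have in any result on the mitochondrial ribosome was not tested.

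The 2 chips did not behave alike, which touches the values from 430B. On 100 probe sets present on both chips, the deposited values of medulloblastomas 1 and 2 were 0.63 to 0.77 (log2, medians) higher on 430B than on 430A, whereas those of medulloblastoma 3 and of both cerebella were 0.070 to 0.20 higher. Deviations from the group mean over these probe sets matched medulloblastoma 3 of 430B to medulloblastoma 2 of 430A (r = 0.86, a description over probe sets). With medulloblastoma 3 of 430A r was -0.52, so a number may not mark the same sample on both chips, and the chips were fitted apart. The alternative that scales 430B on the shared probe sets did match arrays by number, and its values rest on that match. Of the 76 genes, 74 stand on a 430A probe set, and only Mrps10 and Mrps27 rest on 430B.

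Few mitochondrial ribosomal protein genes differed between the tissues past the test. Differences are log2 fold changes of medulloblastoma over cerebellum on the scale of log2(intensity + 16), tested with limma, and a gene was called where its p-value, adjusted with the Benjamini-Hochberg method over all probe sets of its chip, was under 0.05. Mrps35 was the 1 member called higher in medulloblastoma, and Mrps34, Mrpl44 and Mrpl46 were the 3 called lower. The 4 calls are 5.26% of the members, beside 26.8% of all 14702 genes (10.7% higher and 16% lower). After quantile normalization the split was 6 higher and 3 lower (27.3% of all genes called), and with equal array medians 2 higher and 3 lower (26.5% of all genes). Among the 8484 genes within the members' range of mean level, 32.9% were called. At an unadjusted p under 0.05, 4 members were higher and 7 lower (14.5%), beside 36.2% of all genes.

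The differences were small in size. The members' median log2 fold change was -0.034, with an interquartile range of -0.17 to 0.21, and that of all genes was -0.046, with an interquartile range of -0.32 to 0.22. The sign of the members' median carries no direction, since it was 0.10 after quantile normalization and 0.018 with equal array medians. Fitted values were above 0 for 34 members and below 0 for 42. No member reached a log2 fold change of 1 in size, which 13.6% of all genes did, and 8 members reached 0.5. For 68 of the 76 members the 95% interval lay wholly between -1 and 1, so that a 2-fold difference in intensity plus 16 was outside it. A 1.5-fold difference in intensity plus 16, in either direction, was outside the interval of only 26 members. The intervals reached a median of 0.44 to either side with these numbers of arrays. A fold in intensity itself reads smaller on this scale, most of all in dim probe sets, so these limits do not carry over to it. In 31 members (40.8%) the medulloblastoma arrays did not overlap the cerebellum arrays, 15 above and 16 below, beside 52.3% of all genes.

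**Figure D1:**
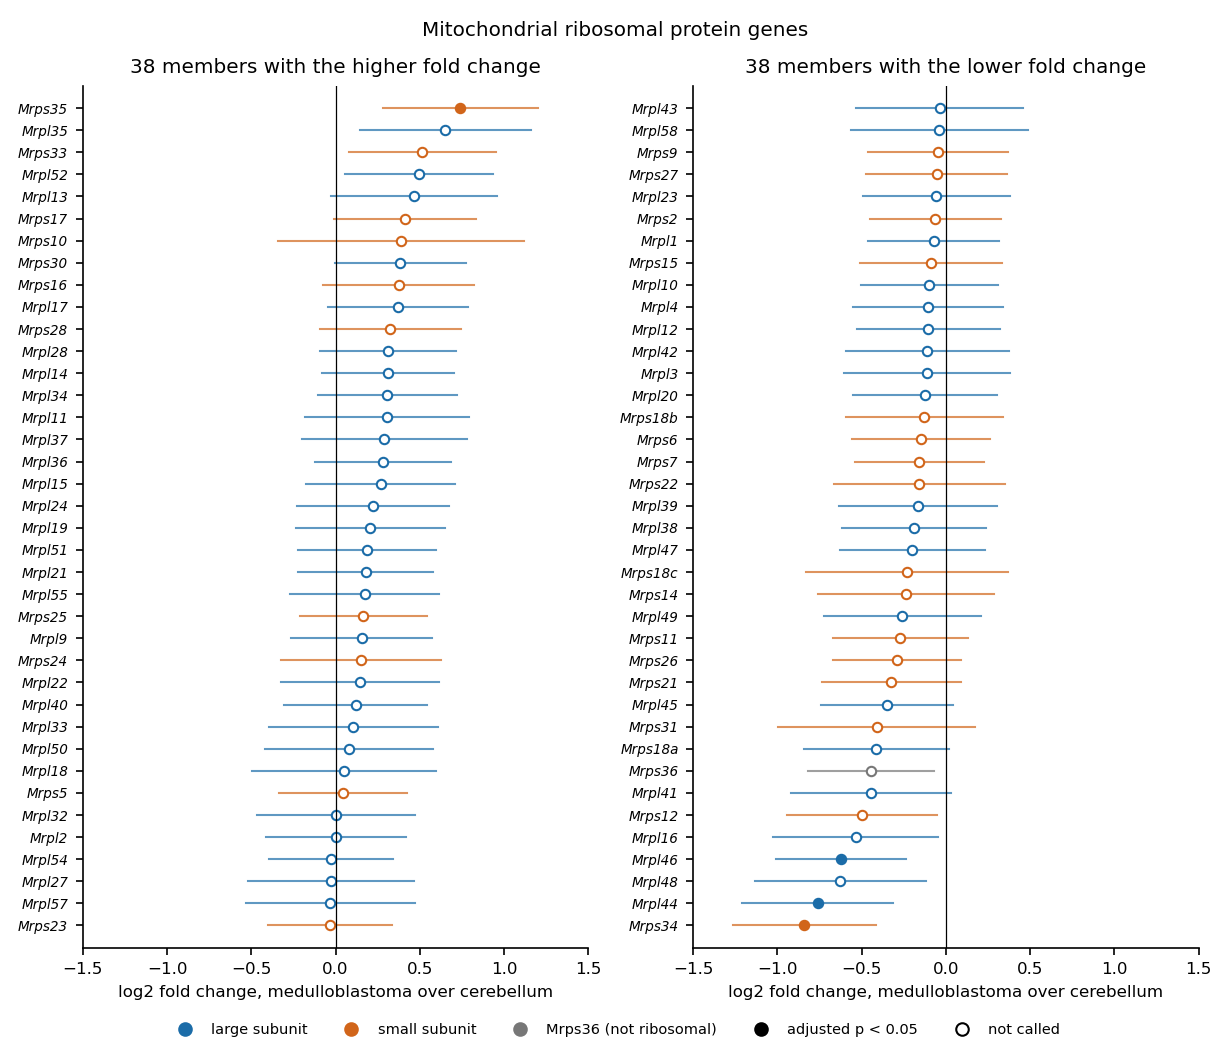
Log2 fold change (medulloblastoma over cerebellum, x axis) of each of the 76 mitochondrial ribosomal protein genes, with 95% intervals as bars, coloured by subunit and filled where the adjusted p was under 0.05. The values run from -0.84 for Mrps34 to 0.74 for Mrps35, and 4 points are filled.

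Mrps34, a small-subunit protein with no bacterial counterpart that is needed to keep the small-subunit ribosomal RNA stable, was the member lowest in medulloblastoma. Its intensities were 53.1, 71.0 and 69.6 in the medulloblastomas and 114 and 142 in the cerebella. All 3 medulloblastomas lay below both cerebella, and the log2 fold change was -0.84 ± 0.19 (SE), with a limma adjusted p of 0.00612. A probe set shared with Nme3, the neighbouring nucleoside diphosphate kinase gene, was also lower, by -0.77 on the log2 scale (limma adjusted p 0.00925).

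Mrpl44, a large-subunit protein with a ribonuclease III-like domain, had intensities of 73.7, 75.2 and 106 in the medulloblastomas and 145 and 162 in the cerebella. The groups did not overlap, although medulloblastoma 3 stood above the other 2, and the log2 fold change was -0.76 ± 0.20 (limma adjusted p 0.0144). The gene's other 3 tested probe sets ranged from -0.43 to 0.11 and were not called, and the mean over its 430A probe sets was -0.42 with an adjusted p of 0.0885. The value of 0.11 was on 430B as deposited, and it was -0.16 after scaling on the shared probe sets. Mrpl46, another large-subunit protein found only in mitochondria, had intensities of 70.4, 58.4 and 67.6 in the medulloblastomas and 105 and 114 in the cerebella. Its groups were tight and apart, and the log2 fold change was -0.62 ± 0.17 (limma adjusted p 0.018).

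Mrps35, a small-subunit protein that also lacks a bacterial counterpart, gave 114, 67.6 and 98.8 in the medulloblastomas and 48.5 in each of the cerebella. Every medulloblastoma lay above the cerebella, with medulloblastoma 2 nearest to them, and the log2 fold change was 0.74 ± 0.21 (limma adjusted p 0.0183). With a pseudocount of 64 it was called at 0.47. Mrps34 was also called at an adjusted p under 0.01, and the other 3 members were not.

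The calls varied with the arrays used, the fold changes less so. Without medulloblastoma 1, Mrps35 was at 0.60 (adjusted p 0.0688) and Mrpl44 at -0.68 (adjusted p 0.060), and without medulloblastoma 3, Mrps35 was at 0.69 (adjusted p 0.0536). A fit without a cerebellum has 1 control array, which is assumed to vary as the medulloblastomas do, and lost calls there come with less data. Without cerebellum 1, Mrps34 alone was called, with Mrps35 at 0.74 (adjusted p 0.107), Mrpl44 at -0.83 (adjusted p 0.0629) and Mrpl46 at -0.67 (adjusted p 0.0837). Without cerebellum 2 no member was called, beside 15.7% of all genes, with Mrps35 at 0.74 (adjusted p 0.118), Mrps34 at -0.70 (adjusted p 0.0941), Mrpl44 at -0.69 (adjusted p 0.13) and Mrpl46 at -0.57 (adjusted p 0.152). No sign turned in any of these fits.

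Several members fell just short of the threshold. Mrpl35, whose bacterial counterpart is a protein of the large subunit, had intensities of 430, 295 and 271 in the medulloblastomas and 200 and 203 in the cerebella. All medulloblastomas were above both cerebella, with a log2 fold change of 0.65 ± 0.23 (limma adjusted p 0.0511). Mrps33 (0.52, adjusted p 0.0699) and Mrpl52 (0.49, adjusted p 0.0847), both found only in mitochondrial ribosomes, were likewise above the cerebella in every medulloblastoma. On the other side stood Mrpl48 at -0.63 (adjusted p 0.0596), Mrps12 at -0.50 (adjusted p 0.0871) and Mrpl16 at -0.54 (adjusted p 0.0911), each with all medulloblastomas below both cerebella. Mrps12 is the counterpart of the bacterial protein S12 of the decoding centre, where codon and anticodon are matched. Mrps36, which carries a ribosomal name but is now assigned to the 2-oxoglutarate dehydrogenase complex of the citrate cycle, stood at -0.44 (adjusted p 0.0697).

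At the other end, 6 members had fold changes closest to 0. Mrpl2, the counterpart of bacterial L2 near the site of peptide bond formation, had intensities of 134, 136 and 119 in the medulloblastomas and 137 and 122 in the cerebella, and a log2 fold change of 0.0028. Mrpl32, whose precursor is cleaved by the m-AAA protease of the inner membrane before it joins the ribosome, had 180, 120 and 157 in the medulloblastomas and 157 and 144 in the cerebella (log2 fold change 0.0029). The groups overlapped in both genes. Mrpl27, the counterpart of bacterial L27, had 240, 159 and 220 in the medulloblastomas and 226 and 191 in the cerebella (-0.028). Mrpl54 had 58.8, 45.8 and 46.2 in the medulloblastomas and 47.3 and 55.4 in the cerebella (-0.028). Mrpl27 and Mrpl54 each had both cerebella within the span of the medulloblastomas. Mrpl57 had 196, 148 and 238 in the medulloblastomas and 204.5 and 186 in the cerebella (-0.031), and Mrps23 had 72.2, 67.4 and 61.3 in the medulloblastomas and 72.2 and 65.3 in the cerebella (-0.032). In these 6 genes the SE was 0.17 to 0.23, and differences well above that size could still go uncalled. Mrps33, for example, was not called at a log2 fold change of 0.52 with an SE of 0.20.

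**Figure D2:**
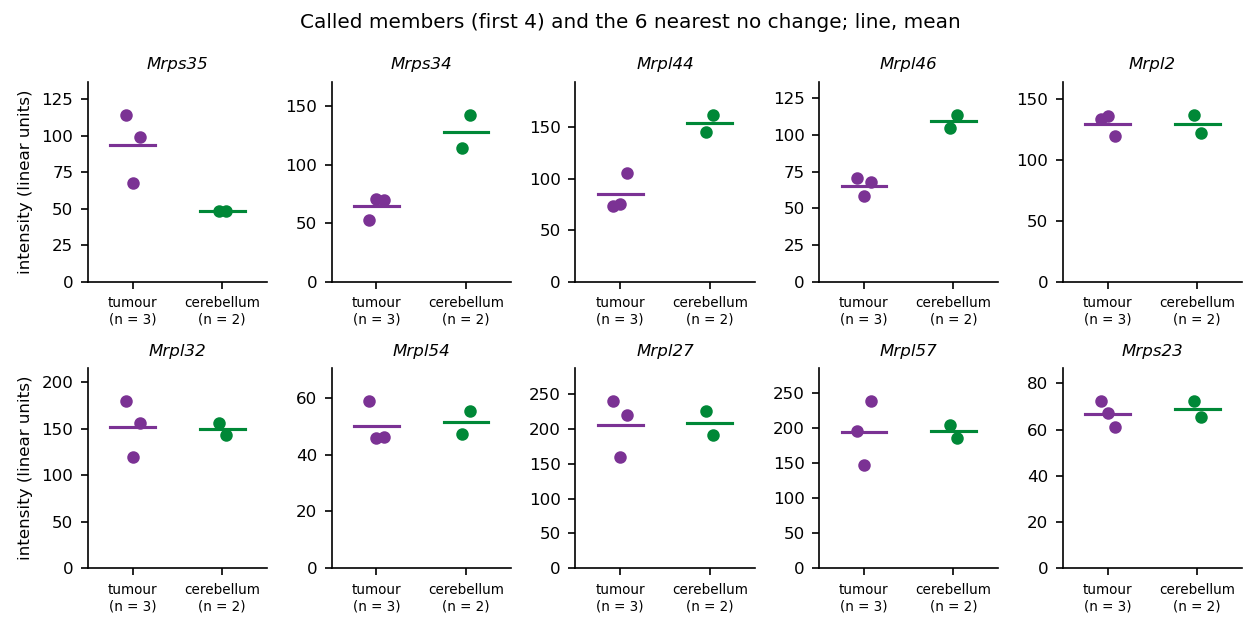
Deposited intensity (linear units, y axis from 0) on each 430A array of the 4 called members and the 6 members closest to no change, with medulloblastomas (n = 3) left of cerebella (n = 2) and a line at each mean. The groups stand apart in the first 4 panels, such as Mrps35 at 67.6 to 114 in medulloblastomas and 48.5 in cerebella, and overlap in the other 6.

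The promoters of members are given as sequence context, with no measurement of factor binding. Of the 76 members, 67 matched 73 RefSeq promoter windows on GRCm38.p6, each from 250 bases before to 50 bases after a gene's start, and words were searched on both strands. The windows of Mrpl2 overlap each other, as do those of Mrps16. The ETS-factor word CCGGAAG stood in 34.2% of the members' windows, in 43.8% of those of cytoplasmic ribosomal proteins, in 24.6% of those of respiratory chain and ATP synthase subunits, and in 11.6% of those of all protein-coding genes. The NRF1 word GCGCATGCG stood in 9.59% of the members' windows, 4.17% of cytoplasmic ribosomal ones, 10.1% of respiratory ones and 2.35% of all protein-coding ones. For the YY1 word AAGATGGCG the shares were 11.0%, 6.25%, 8.70% and 1.83%, in the same order. Shares of members and of all protein-coding genes were close for CACGTG (9.59% and 7.84%), CCAAT (39.7% and 38.2%), GGGCGGGG (24.7% and 23.6%) and TATAAAA (5.48% and 5.04%). The 25 members with the ETS word had a median log2 fold change of -0.032, and the 42 with a window but without it had -0.060. Of the 6 members nearest to no change, Mrpl32 is shown as the 1 with the NRF1 word, and Mrpl27 as an example of the ETS word, which Mrpl57 and Mrps23 also hold. Each is printed up to the last base before the start of the gene in the reference table, which for Mrpl27 lies upstream of the start that the window was built on, so 229 bases are shown. Capitals in Mrpl32 (chr13:14613038-14613287, minus strand) mark the reverse complement of CCAAT from 155 bases, the NRF1 word on both strands from 87 and 86 bases, which overlap, and its reverse complement from 23 bases before the start. Capitals in Mrpl27 (chr11:94653541-94653769, plus strand) mark the ETS word from 34 bases before the start.
Mrpl32: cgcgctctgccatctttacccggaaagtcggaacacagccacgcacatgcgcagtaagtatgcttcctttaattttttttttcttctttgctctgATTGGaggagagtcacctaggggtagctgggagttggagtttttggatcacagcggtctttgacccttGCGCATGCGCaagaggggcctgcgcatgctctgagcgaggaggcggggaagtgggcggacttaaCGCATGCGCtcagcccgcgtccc
Mrpl27: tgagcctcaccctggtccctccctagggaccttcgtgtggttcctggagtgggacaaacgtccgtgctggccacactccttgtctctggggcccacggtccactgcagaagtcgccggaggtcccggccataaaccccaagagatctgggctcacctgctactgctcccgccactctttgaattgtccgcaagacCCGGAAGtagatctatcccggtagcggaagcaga

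Few calls fell in either subunit or in either evolutionary class. Of all genes, 26.8% were called and 36.2% had an unadjusted p under 0.05. In the large subunit, 0 of 49 genes were called higher and 2 lower, with a median log2 fold change of 0.0028. At an unadjusted p under 0.05 the large subunit had 2 higher and 4 lower. In the small subunit, 1 of 26 was higher and 1 lower, with a median of -0.076. Of 46 genes with a bacterial counterpart, none was called by limma (1 higher and 2 lower at an unadjusted p under 0.05), and their median was 0.0028. The 4 calls fell among the 29 genes found only in mitochondria (1 higher and 3 lower, median -0.040), a difference between the classes that was not tested.

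None of the following members was called, as was true of 72 of the 76. Mrpl12, the stalk protein that also binds the mitochondrial RNA polymerase, had intensities of 191, 199 and 176 in the medulloblastomas and 194 and 214 in the cerebella, with a log2 fold change of -0.11 ± 0.19. The other proteins of the stalk, which recruits the translation factors, were Mrpl10 at -0.099 and Mrpl11 at 0.31. Near the peptidyl transferase centre, Mrpl3 was at -0.11, and at the exit tunnel Mrpl4 was at -0.10, Mrpl22 at 0.14 and Mrpl24 at 0.22. Mrpl45, which holds the ribosome at the inner membrane beside the insertion machinery, was at -0.35 ± 0.18 (adjusted p 0.165), with all medulloblastomas below both cerebella. Mrpl58, a peptidyl-tRNA hydrolase that frees stalled chains, was at -0.040.

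In the small subunit, Mrps5, the counterpart of bacterial S5, was at 0.044, and Mrps7, which binds the small-subunit ribosomal RNA, was at -0.16. The 3 relatives of bacterial S18 were all below 0 and not called, with Mrps18a at -0.41, Mrps18b at -0.13 and Mrps18c at -0.23. Mrps18a belongs to the large subunit in spite of its name, as does Mrps30 (0.38, adjusted p 0.128). Mrps27, a pentatricopeptide repeat protein measured on 430B, was at -0.055. Mrps10, the other member that rests on 430B, was at 0.39 as deposited (206, 214 and 89.2 in the medulloblastomas and 116 and 119 in the cerebella) and at 0.015 after the 430B arrays were scaled on the shared probe sets. Its 2 high arrays were medulloblastomas 1 and 2, the arrays that read high on the shared probe sets.

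Several probe sets often measure 1 gene. Over 430A, 2 of 114 tested probe sets of members were higher and 7 lower (7.89%), beside 32.2% of all probe sets on that chip (13.1% higher and 19% lower). Over 430B, 3 of 32 were higher and 2 lower (15.6%), beside 17.6% of all (7.85% higher and 9.77% lower), a share near the background of that chip. Quantile normalization gave 8 higher and 5 lower on 430A, equal medians 3 and 5, and scaling on the shared probe sets gave 2 higher and 3 lower on 430B. For these alternatives the share of all probe sets called on a chip was not taken. The share of all genes called was 27.3%, 26.5% and 27.2%. Of 40 members with 2 or more tested probe sets, 31 had none called, 9 had called and uncalled ones, and 0 had calls in both directions. The median range of the log2 fold change within a gene was 0.33, which is larger than the members' median fold change in size (0.20). Counting any probe set, 3 members had a higher call (Mrps35, Mrpl52 and Mrpl13) and 9 a lower one (15.8% in all), beside 32.7% of all genes (13.7% with a higher call and 19.4% with a lower one). The 9 were Mrps34, Mrpl44, Mrpl46, Mrpl35, Mrpl48, Mrpl51, Mrpl57, Mrps14 and Mrps26.

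With 430B values as deposited, the probe sets of 21 of the 40 members lay on both sides of 0, with the widest ranges in Mrpl35, Mrpl44 and Mrpl51. Scaling 430B on the shared probe sets moved crossings both ways. The 430B probe set of Mrpl44 went from 0.11 to -0.16, the side of its 430A ones. That of Mrpl17 went from 0.087 to -0.17, away from its 430A ones. Crossings were not recounted after scaling. The probe set of Mrpl35 on 430B (1440989_at) read 51.4, 36.5 and 40.6 in the medulloblastomas and 97.5 and 94.7 in the cerebella. Its log2 fold change was -0.94 (limma adjusted p 0.00351, and 0.000137 after scaling on the shared probe sets), against 0.65 and no call for the probe set on 430A (1419363_a_at). For Mrpl51, 1 probe set (1416879_at) was at -0.51 (adjusted p 0.0215), while the other 2 were at 0.19 and 0.31 and not called. Where these probe sets lie in the transcripts was not examined.

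Mrpl52 was the member with the most calls on probe sets that do not stand for it. Probe set 1415761_at, present on both chips, read 253, 165 and 153 in the medulloblastomas and 89.4 and 97.0 in the cerebella on 430A, a log2 fold change of 0.89 (limma adjusted p 0.0131). On 430B the same probe set was at 1.30 as deposited (adjusted p 0.00673) and at 0.91 after scaling (adjusted p 0.00773). Probe set 1415762_x_at was called on 430B (1.34, adjusted p 0.0138) and not on 430A (0.35). All 3 tested 430A probe sets of Mrpl52 had every medulloblastoma above both cerebella. Mrpl13 was called higher on 430B at 0.67 (adjusted p 0.00717) but not after scaling (0.40, adjusted p 0.256), and its 3 probe sets on 430A were at 0.27 to 0.49 and not called.

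**Figure D3:**
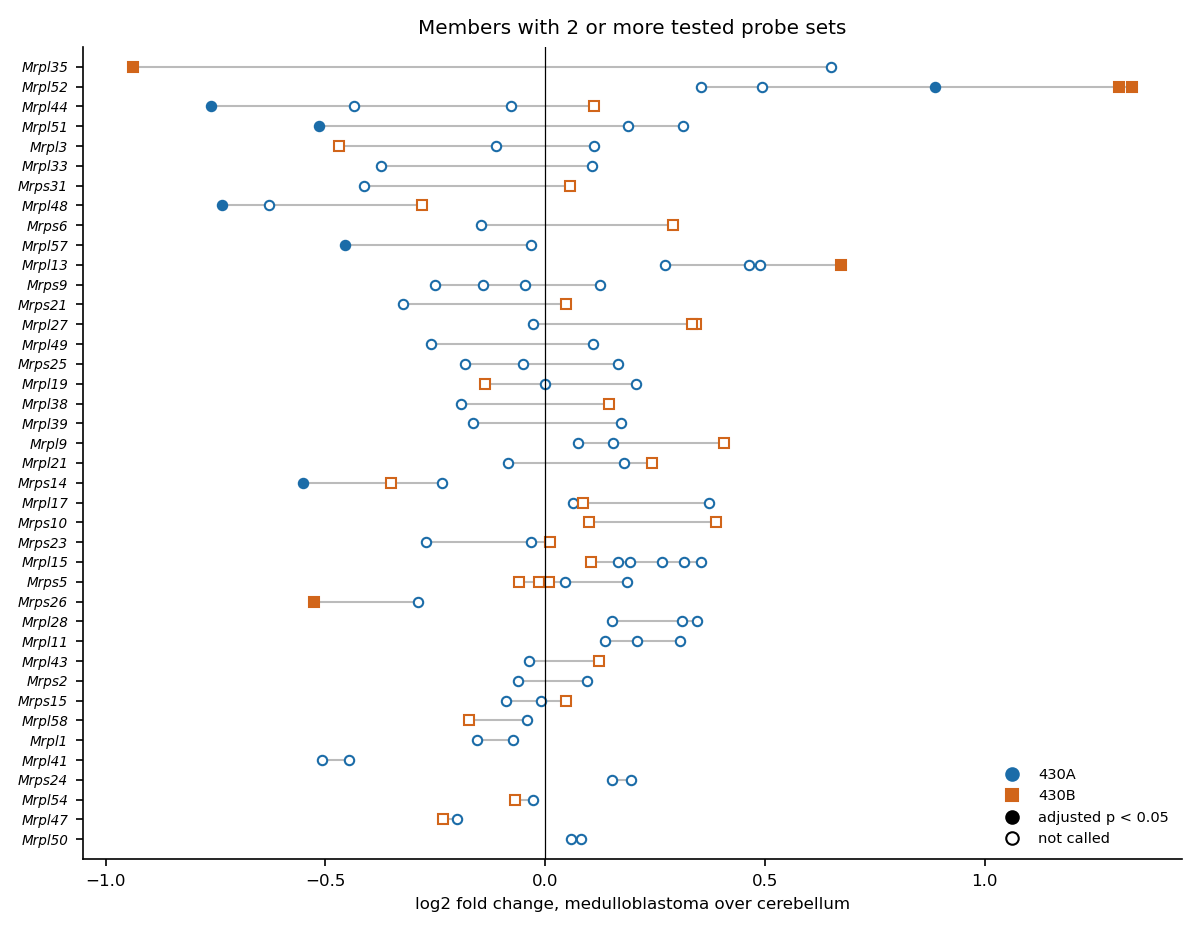
Log2 fold change (medulloblastoma over cerebellum, x axis) of every tested probe set of the 40 members with 2 or more, 1 gene per row, circles for 430A and squares for 430B, filled where the adjusted p was under 0.05. Values of 430B are as deposited. The median row spans 0.33, 21 rows cross 0, and the 4 longest are Mrpl35 (-0.94 to 0.65), Mrpl52 (0.35 to 1.34), Mrpl44 (-0.76 to 0.11) and Mrpl51 (-0.51 to 0.31).

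The medulloblastomas differed among themselves by about as much as they differed from the cerebella. Across the 74 members on 430A, the median size of the log2 difference was 0.33 between medulloblastomas 1 and 2, 0.14 between 1 and 3, and 0.21 between 2 and 3. It was 0.20 to 0.31 between a medulloblastoma and a cerebellum, and 0.13 between the cerebella. Medulloblastoma 2 was the lowest of the medulloblastomas in 48 of the 74 members (64.9%), beside 37.7% of all genes on that chip. Set against the cerebellum mean, the members' median was 0.094 in medulloblastoma 1, -0.15 in medulloblastoma 2 and 0.0014 in medulloblastoma 3.

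Without medulloblastoma 2, 9 members were called higher and 4 lower, beside 29.3% of all genes. The 9 were Mrpl11, Mrpl13, Mrpl17, Mrpl35, Mrpl52, Mrps16, Mrps28, Mrps33 and Mrps35, and Mrps12 joined the 3 lower ones. Even then the members' share was 17.1%. Leaving out medulloblastoma 1 gave 0 higher and 3 lower (22.0% of all genes called), leaving out medulloblastoma 3 gave 2 higher and 3 lower (27.7%), and leaving out cerebellum 1 gave 0 higher and 1 lower (17.9%). What sets medulloblastoma 2 apart was not tested.

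The members' median fold change lay between those of 2 groups of genes with many calls. Of 46 cytoplasmic ribosomal protein genes, 20 were higher (43.5%) and 1, Rpl38, was lower, with a median log2 fold change of 0.44. Rplp0, of the stalk of the cytoplasmic ribosome, had intensities of 2553, 2631 and 2416 in the medulloblastomas and 836 and 870 in the cerebella (1.55 ± 0.14, limma adjusted p 8.42e-06). Rps27l (1.80), Rpl22 (1.60) and Rps18 (1.52) had the other 3 leading values of that list. Rps18 was at 0.41 and not called by its brightest probe set (adjusted p 0.0526), and Rpl38 was not called without medulloblastoma 3 or without cerebellum 2. Many of these genes have processed pseudogenes, so their probe sets may read close copies as well.

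The nuclear-encoded subunits of the respiratory chain and the ATP synthase went the other way. Outside complex II, the mitochondrial ribosome makes their mitochondrially encoded partners. Of 80 such genes, 54 were lower (67.5%) and 0 higher by limma, with a median log2 fold change of -0.89. Cox8a, of cytochrome c oxidase, had intensities of 448, 454 and 428 in the medulloblastomas and 1672 and 1919 in the cerebella (-1.98 ± 0.17, limma adjusted p 6.88e-06). Cox6a1 of the same complex was at -1.95, Ndufv3 of complex I at -1.76 and Atp5b of the ATP synthase at -1.73. Lower calls were made in 24 of 35 subunits of complex I, 3 of 4 of complex II, 7 of 9 of complex III, 9 of 16 of complex IV and 11 of 16 of the ATP synthase. Complexes were assigned by gene symbol alone, with every Nduf gene counted in complex I. The 75 genes with a fitted value below 0 include all those of complexes II and III.

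A probe set for ND5, a complex I subunit that mitochondrial DNA encodes and the mitochondrial ribosome translates, was picked after its values were seen. It read 1102, 726 and 988 in the medulloblastomas and 3442 and 4231 in the cerebella. The groups were far apart, with a log2 fold change of -2.03 ± 0.19 (limma adjusted p 1.31e-05).

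**Figure D4:**
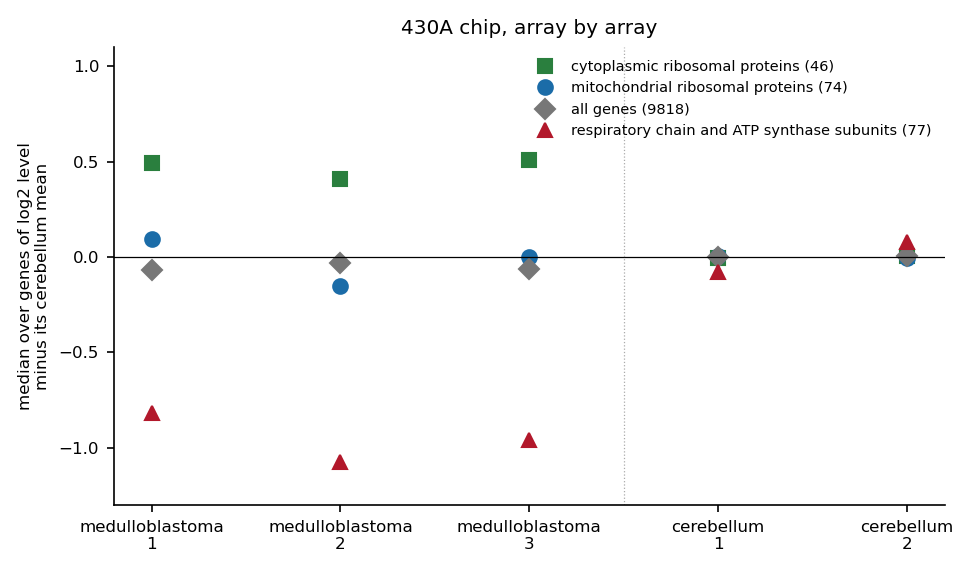
Median over genes of the log2 level on each 430A array minus its mean over the cerebella (y axis, log2 units), medulloblastomas left of cerebella, for 4 sets of genes. In the medulloblastomas the mitochondrial ribosomal proteins lie at 0.094, -0.15 and 0.0014, cytoplasmic ribosomal proteins at 0.49, 0.41 and 0.51, and respiratory chain and ATP synthase subunits at -0.82, -1.08 and -0.96.

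Lists of genes that build and serve the mitochondrial ribosome had medians near 0 and shares of calls near or below those of all genes (10.7% higher and 16% lower). The 4 measured mitoribosomal proteins under other symbols had no call by limma and a median of -0.040. Among them the pentatricopeptide protein gene Ptcd3 was at 0.62 (adjusted p 0.0574), and Gadd45gip1 was at -0.15 (adjusted p 0.573). Of 27 genes for assembly and ribosomal RNA modification, 3 were higher and 2 lower, with a median of 0.0062 (11.1% and 7.41%). Mrm1, which methylates the large-subunit ribosomal RNA, had intensities of 7.46, 13.2 and 9.78 in the medulloblastomas and 34.2 and 56.0 in the cerebella (-1.21 ± 0.18, limma adjusted p 0.00035). At such low intensities the fold depends on the pseudocount, and it was -2.04 with a pseudocount of 1 and -0.55 with 64, called in both. The pseudouridine synthase gene Trub2 was at 0.80, the matrix protein gene C1qbp at 0.74 and Ngrn at -0.69, each called in the fit on all arrays and none of them with cerebellum 1 as the only control array, where they were at 0.72, 0.79 and -0.65 (adjusted p 0.0912, 0.0676 and 0.0788). With cerebellum 2 as the only control array C1qbp was at 0.69 (adjusted p 0.103). Mrm1 was called in every fit that left out an array. With a pseudocount of 64, Trub2 was at 0.48 and Ngrn at -0.43, both called. C1qbp was at 0.60 and not called by its brightest probe set (limma adjusted p 0.118).

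Of 14 mitochondrial translation factors, 0 were higher and 1 lower, with a median of 0.092. The 1 was Gfm1, the elongation factor that moves the ribosome along the mRNA, at -0.59 ± 0.16 (limma adjusted p 0.0127). By its brightest probe set Gfm1 was at -0.47 and not called (limma adjusted p 0.137). Mrrf, the recycling factor, was at 0.34 and not called. With 1 control array Gfm1 was at -0.52 without cerebellum 1 (adjusted p 0.12) and at -0.67 without cerebellum 2 (adjusted p 0.0532), and it was at -0.33 and called with a pseudocount of 64. Of 15 mitochondrial aminoacyl-tRNA synthetases, 1 was called higher, Ears2 at 0.45 (adjusted p 0.0254), but its brightest probe set gave -0.51 (adjusted p 0.0229), so no direction can be given for it. Its value was 0.86 with a pseudocount of 1 and 0.18 with 64, called in both. Without medulloblastoma 1, medulloblastoma 3, cerebellum 1 or cerebellum 2 it was at 0.37 to 0.54 and not called. Hars2 was at -0.32 and not called, and the list's median was 0.015.

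Of 14 genes for replication and transcription of mitochondrial DNA, 2 were higher (14.3%) and 0 lower, with a median of 0.0085. Ssbp1, which coats single-stranded mitochondrial DNA, had intensities of 364, 393 and 391 in the medulloblastomas and 254 and 197 in the cerebella (0.73 ± 0.20, limma adjusted p 0.0157). It was at 0.71 and not called without medulloblastoma 3 (adjusted p 0.0533), and at 0.56 and not called without cerebellum 2 (adjusted p 0.197). Twnk, the helicase of mitochondrial DNA, was at 0.85 on 430B (adjusted p 0.00314) and at 0.51 and not called after scaling on the shared probe sets (adjusted p 0.19). With 1 control array it stayed at 0.85 without cerebellum 1 (adjusted p 0.0524) and without cerebellum 2 (adjusted p 0.0555). With a pseudocount of 64 it was at 0.51 and called.

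Of 20 genes for protein import and mitochondrial chaperones, 2 were higher and 2 lower (10% each), with a median of -0.017. The import channel subunits Timm50 (0.93) and Timm17a (-0.72), the intermembrane space chaperone Timm8a1 (0.91) and the outer membrane receptor Tomm70a (-0.90) were the 4 called, whereas quantile normalization gave 5 higher and 1 lower, and equal medians 3 and 2. Timm50 was at 0.24 and not called by its brightest probe set (adjusted p 0.469), and at 0.81 without cerebellum 1 (adjusted p 0.0607). With a pseudocount of 64 it was at 0.53 and called. Tomm70a was at -0.13 by the mean of its probe sets and at -0.82 without cerebellum 2 (adjusted p 0.11). Timm8a1 was at 0.74 to 1.03 and not called without medulloblastoma 1, cerebellum 1 or cerebellum 2. Timm17a was at -0.72 to -0.69 and not called without medulloblastoma 3, cerebellum 1 or cerebellum 2.

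**Figure D5:**
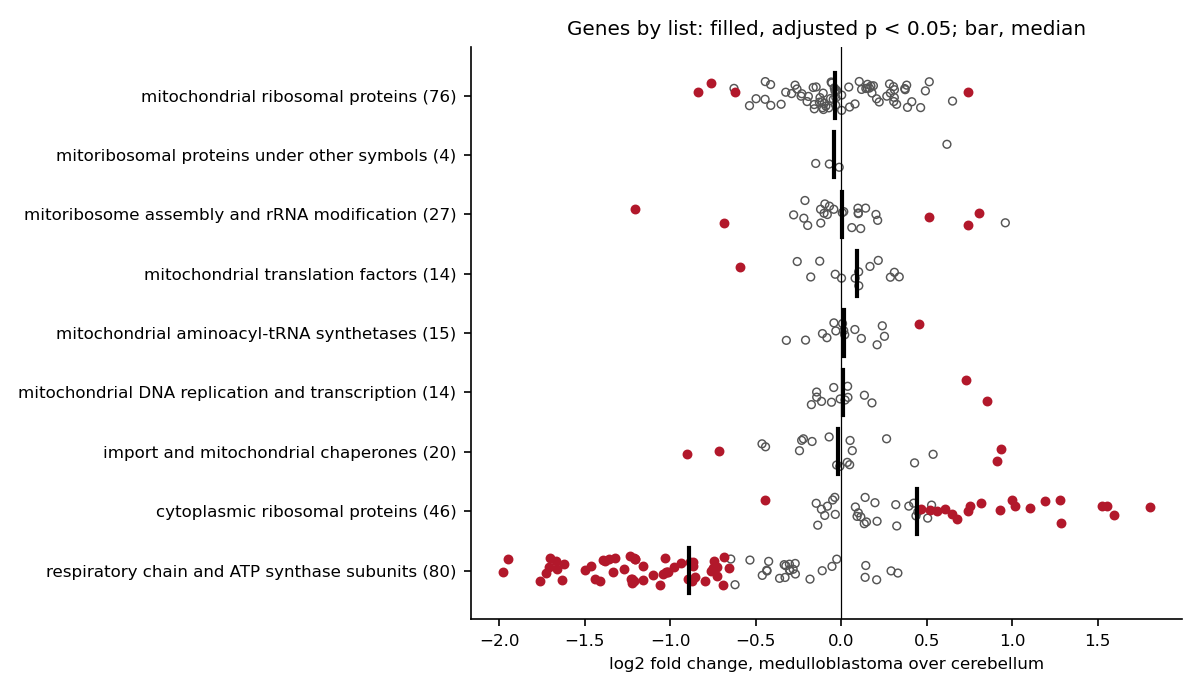
Log2 fold change (medulloblastoma over cerebellum, x axis) of each gene in the mitochondrial ribosomal protein set and 8 comparison lists, with the number of genes in brackets, filled where the adjusted p was under 0.05, and a bar at each median. The mitochondrial lists have medians from -0.040 to 0.092, the cytoplasmic ribosomal proteins 0.44 and the respiratory chain and ATP synthase subunits -0.89.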

How the data were processed

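RNA from 3 medulloblastomas and 2 adjacent cerebella was measured on both Affymetrix chips, 10 arrays in all. The deposited value tables hold 1 intensity per probe set and array, on a linear scale. The labels give Trizol extraction and biotin labelling. Which software, background correction and scaling produced the values is not given in the sources used here. Array medians lay at 33.3 to 35.9 on 430A and 22.5 to 24.0 on 430B, and 298 to 477 probe sets per array were at exactly 1. No detection calls were used, and the number of arrays limits the precision.

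Intensities were taken to log2 after adding 16, and on each chip the dimmest 25% of probe sets by mean were dropped. Tissue was tested within each chip (16969 and 16883 probe sets) with limma 3.58.1 in R 4.3.3, using lmFit and eBayes with an intensity trend, two-sided, with Benjamini-Hochberg adjustment. No further normalization was applied. The platform annotation names 1 gene for 20380 and 14661 probe sets, several for 691 and 245, and none listed for 1555 and 7605. Each gene was represented by 1 tested probe set naming no other gene: from 430A before 430B, then without an _s_at or _x_at suffix, then with the highest mean. Members are all symbols beginning Mrpl or Mrps and a digit.

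The members and comparison lists were chosen with earlier results of these data known. Any member could be named. Values on every array were given for called members and for the 6 closest to 0, and up to 4 called genes were named per list (where fewer than 2 passed, the 2 with the smallest p). The alternatives changed the pseudocount (1 or 64), normalization, filter, variance model, replicate block, representing probe set, threshold and arrays used. Whether replicate numbers pair tumour and cerebellum was not settled. Deviations of same-numbered arrays correlated at -0.029 and 0.17 on 430A and at 0.11 and 0.020 on 430B. With only 2 cerebella their deviations mirror each other, so these correlations cannot decide it. Figures were drawn with matplotlib 3.10.9 under Python 3.11.15.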

Additional observations from a re-analysis of the deposited data

How the results depend on the processing

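Mitochondrial ribosomal protein genes numbered 1 higher and 3 lower in the reported fit. Brackets give the share of members called in either direction, beside that of all genes. There were 6 higher after quantile normalization (11.8% beside 27.3%). Equal array medians gave 2 higher (6.58% beside 26.5%), as did leaving out the lower 50% of probe sets (6.58% beside 33.0%). There were 4 higher and 5 lower without an intensity trend (11.8% beside 26.7%), and 3 higher with the mean over probe sets (9.21% beside 27.6%). At an adjusted p under 0.01 there were 0 higher and 1 lower (1.32% beside 17.6%). With a log2 fold change of at least 1 there were 0 and 0 (beside 13.5% of all genes). Pseudocounts of 1 and 64, no filter, scaling of 430B, the brightest probe set, 430A alone and no _s_at or _x_at probe sets left both counts as reported. Of these, scaling of 430B and 430A alone touch only Mrps10 and Mrps27 among the members, since the others stand on 430A. With the replicate block, where the numbers are shared but not shown to pair samples, 3 members were higher and 5 lower (10.5% beside 32.9%). Replicate 3 exists only for medulloblastoma, so its block term takes up that array and the fold changes rest on replicates 1 and 2. The medians, -0.051 for members and -0.038 for all genes, equal those of the fit without medulloblastoma 3. In the block fit 8 member probe sets were higher on 430B, 1 translation factor was higher and 0 cytoplasmic ribosomal proteins were lower. Probe sets of members called higher on 430A numbered 2 as reported, 8 after quantile normalization, 5 without a trend, and 0 at p under 0.01 or at a fold change of 1, where 1 and 0 were lower. On 430B, 1 and 0 were lower in place of 2. For member probe-set counts under the alternatives, fits that leave out an array included, the share of all probe sets called was not taken. The members' median was 0.10 after quantile normalization. Scaling 430B moved the median of all its probe sets to -0.24, against -0.022 as deposited, and left 1 gene of mitochondrial DNA replication and transcription higher, as did 430A alone. Quantile normalization gave 1 higher among mitoribosomal proteins under other symbols, 5 higher and 1 lower among import genes, 0 lower among cytoplasmic ribosomal proteins and 2 higher among respiratory subunits. Among the proteins under other symbols 1 was also higher with equal medians, with 50% left out and without a trend, and without a trend 0 cytoplasmic ribosomal proteins were lower. These were 2 lower without a filter and 0 lower without _s_at or _x_at probe sets. With 50% left out, 1 assembly gene was lower and 0 synthetases were higher. The brightest probe set gave 0 translation factors lower, 0 synthetases higher and 1 lower, and 1 import gene higher, and the mean over probe sets gave 0 synthetases higher and 1 import gene lower. Ears2 reversed to -0.51 by the brightest probe set and to -0.030 by the mean. At p under 0.01, 0 translation factors were lower, 0 synthetases higher, 1 gene of mitochondrial DNA higher, 1 import gene higher and 0 lower, and 0 cytoplasmic ribosomal proteins lower. At a fold change of 1, assembly genes were 0 higher and 1 lower, translation factors 0 lower, synthetases 0 higher, mitochondrial DNA genes 0 higher, import genes 0 and 0, and cytoplasmic ribosomal proteins 10 higher and 0 lower. The cause of these shifts was not tested. Leaving out each array in turn gave 0 to 9 members higher and 0 to 4 lower, 0 to 12 probe sets higher and 0 to 9 lower on 430A, 1 to 8 higher and 1 to 3 lower on 430B, and a member median of -0.051 to 0.031. For the lists, higher and lower calls were 0 to 1 and 0 for other symbols, 0 to 3 and 1 to 2 for assembly, 0 and 0 to 1 for translation factors, 0 to 1 and 0 for synthetases, 0 to 2 and 0 for mitochondrial DNA, 0 to 3 and 0 to 3 for import, 16 to 24 and 0 to 1 for cytoplasmic ribosomal proteins, and 0 and 38 to 57 for respiratory subunits. Over the 18 alternative fits Mrps34 was called in 17, the exception being the fit without cerebellum 2. Only 1 probe set, on 430A, names Mrps34 alone. Fits that rescale 430B or change the choice of probe set therefore kept its value by construction, and the count of 17 is no measure of robustness.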

Other observations

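The 3 members with the highest fold changes, Mrps35 (0.74), Mrpl35 (0.65) and Mrps33 (0.52), all lie on chromosome 6, a pattern seen after the values were known. The other 3 members on that chromosome, Mrpl19 (0.21), Mrpl51 (0.19) and Mrps25 (0.17), were also above 0, and the median log2 fold change of the 6 was 0.36. Mrps35 is the 1 of them that passed the test. Other probe sets of these genes went the other way: Mrpl35 at -0.94 (adjusted p 0.00351) and Mrpl51 at -0.51 (adjusted p 0.0215), both called lower, and Mrpl19 at -0.14 and Mrps25 at -0.18, not called.

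The median over all 766 genes of chromosome 6 was 0.035, with 0.024, 0.067 and 0.054 in the 3 medulloblastomas. In the reported fit chromosome 6 was the 1 chromosome of 20 with a median above 0, the other 19 lying between -0.090 and -0.022. Where 0 falls depends on the normalization, since the median of all genes was -0.046 as deposited, 0.0013 with equal array medians and 0.014 after quantile normalization. Chromosome medians are given for the reported fit only. Copy number was not analysed here.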
